A study of Rattus norvegicus with 9 samples.

Results

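The mitochondrial ribosomal proteins are the nuclear-encoded proteins of the ribosome that works inside mitochondria. They were taken as every gene with a symbol of the form Mrpl or Mrps, a number and at most a letter a, b or c, on transcript clusters that carried a single gene symbol. A transcript cluster is the set of array probes that reads 1 transcript. The rule found 70 genes among 18166 single-symbol genes on the array, each with 1 cluster. Of these, 46 code for proteins of the large subunit and 24 for proteins of the small subunit. Mrps18a and Mrps30 were counted with the large subunit, where their proteins lie in structures of mammalian mitoribosomes, although their symbols name the small one. The lower-case symbols mrpl9, mrpl11 and mrpl24 and the symbols Mrps21l and Mrpl41l1 did not match the rule and were not members. The values were RMA intensities, which summarise the brightness of a cluster's probes, and are given here as log2 intensity.

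The samples were retinal ganglion cells, the neurons whose axons form the optic nerve, from Sprague Dawley rats at postnatal day 4. In all groups the cells were purified by immunopanning, electroporated with a construct plus the fluorescent plasmid pMAX-GFP, sorted for green fluorescence the next day and grown on laminin until RNA was taken 3 days after transfection. The group wt_Set (wt-SetB in the titles) received wild-type Set-β, the group myr_Set (myr-SetB) received myr-Set-β, and the group mCherry received the red fluorescent protein mCherry as the control, with 3 arrays each. The Set protein binds histones as a chaperone and inhibits the phosphatase PP2A, and a myristoyl group anchors proteins to membranes. The sorted cells had taken up DNA at isolation, so the values describe cultured neonatal cells that carried a transgene. The titles number the arrays as biological replicates without saying whether they came from separate litters or cultures, so the p-values reflect only how far these arrays spread, and that spread may be technical.

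Mitochondrial ribosomes translate the few proteins encoded by mitochondrial DNA, all of them subunits of the respiratory chain and ATP synthase. Their ribosomal RNA comes from the mitochondrial genome, whereas every protein is made in the cytosol from nuclear genes and imported. Some of the proteins have homologues in bacterial ribosomes, and the others were added in the mitochondrial lineage. Neurons depend strongly on mitochondrial respiration, and in humans mutations in several of these genes cause disorders of heart, brain or liver with combined respiratory chain deficiency.

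The promoters of many such genes hold binding motifs of NRF1 and of ETS factors such as GABP, known regulators of nuclear genes for mitochondrial proteins. RefSeq promoters of assembly GRCr8, running from 250 bases before to 50 bases after each start, were matched by symbol for 57 of the 70 members, with 59 promoters. Windows of 60 bases are shown for members on which the results below turn and whose upstream part holds a match, written 5′ to 3′ on the gene's strand. Capitals mark matches on either strand to the NRF1 motif (GCGCA, any base N, then GCGC) or the ETS motif CCGGAA.
Mrpl28 (chr10:15653119-15653178, plus strand): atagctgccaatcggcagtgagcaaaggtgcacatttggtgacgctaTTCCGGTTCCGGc
Mrpl57 (chr15:36086397-36086456, plus strand): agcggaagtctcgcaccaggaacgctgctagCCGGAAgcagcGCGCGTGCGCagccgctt
Mrpl22 (chr10:42845825-42845884, plus strand): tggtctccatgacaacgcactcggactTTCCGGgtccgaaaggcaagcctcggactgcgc
Mrpl44 (chr9:88554893-88554952, plus strand): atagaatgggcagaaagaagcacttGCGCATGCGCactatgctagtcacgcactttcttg
Mrpl36 (chr1:31795164-31795223, minus strand): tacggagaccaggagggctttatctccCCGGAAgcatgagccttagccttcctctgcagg
Mrps18a (chr9:22367386-22367445, minus strand): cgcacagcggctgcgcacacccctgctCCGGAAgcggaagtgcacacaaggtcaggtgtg
Mrps18b (chr20:2842946-2843005, plus strand): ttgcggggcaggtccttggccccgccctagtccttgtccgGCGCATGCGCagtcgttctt
Mrps18c (chr14:9123012-9123071, minus strand): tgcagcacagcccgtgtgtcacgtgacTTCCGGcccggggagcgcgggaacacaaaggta
Among the member promoters, 31 of 59 held the ETS letters (52.5%), 9 the NRF1 letters (15.3%), 15 the YY1 letters AAGATGGC (25.4%) and 8 the TATA letters TATAAA (13.6%), read on both strands. Over the 9356 promoters of genes past the level filter described below, these shares were 25.6% for ETS, 8.88% for NRF1, 5.31% for YY1 and 7.97% for TATA. Over all 33469 promoters they were 15%, 4.25%, 3.17% and 14.2%. The 70 promoters of nuclear respiratory chain genes held ETS letters in 38.6%, NRF1 in 20% and YY1 in 21.4%. The median GC content was 55.7% for the members and 60.3% for genes past the filter. The promoters of Mrpl17, Mrpl32, Mrpl44 and Mrps18b hold a palindromic NRF1 match, which reads the same on both strands and was counted once per promoter. An ETS match can share bases with a YY1 match, and both are then counted. Such matches describe letters only. The members Mrps17, Mrps25 and Mrpl55, described below, held none of the 4 motifs, and neither did several others, among them Mrpl2, Mrpl41 and Mrps9.

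The arrays differed in their signal range. On each array the median intensity of all clusters is fixed by the authors' scaling, while the distance between the 10th and 90th percentiles of log2 intensity was 4.12 to 4.21 on wt_Set arrays, 3.82, 4.18 and 4.46 on myr_Set arrays and 4.29 to 4.54 on mCherry arrays. Array 1 of myr_Set had the narrowest range of the 9. No single-symbol cluster carried the symbol Set, so the transfected gene was not followed. The ganglion cell markers were present, with Rbpms at 9.32, 9.23 and 9.33 in wt_Set, 7.93, 9.34 and 9.995 in myr_Set and 10.04, 9.95 and 10.31 in mCherry. The mean log2 level of the 15 ganglion cell markers was 8.39 to 8.89 in wt_Set, 8.19 to 8.92 in myr_Set and 8.79 to 9.48 in mCherry. Their summed intensity was 6895 to 12234 in wt_Set, 7484 to 12830 in myr_Set and 10851 to 18507 in mCherry. For the 11 microglia and macrophage markers the sum was 1387 to 2348 in wt_Set, 1393 to 2176 in myr_Set and 1384 to 2079 in mCherry. For the 8 glia and progenitor markers on the array it was 811 to 4173 in wt_Set, 1069 to 4771 in myr_Set and 971 to 5123 in mCherry. Vim, a filament gene of glia and other non-neuronal cells, was at 7.84, 11.15 and 11.79 in wt_Set, 8.39, 11.42 and 12.04 in myr_Set and 8.60, 11.59 and 12.13 in mCherry, so that array 1 was the lowest in each group. Its mean level of 10.55 was far above that of Nes, the next gene of this list (7.18), so the sum mainly follows Vim. Of the 3 tested genes of the list only Vim had this order. In myr_Set, Aqp4 was highest on array 1 (7.28, 6.91 and 6.70). The part of these markers in the member values was not tested. In such bulk samples fewer cells of a type and less RNA per cell cannot be told apart.

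The mitochondrial ribosomal proteins were expressed at moderate levels. Averaged over 9 arrays, the large subunit members ran from 6.17 to 9.54 with a median of 7.78, and the small subunit members from 6.28 to 8.54 with a median of 7.88. Among all single-symbol genes the members stood between percentile 26.3 (Mrpl40) and percentile 97.4 (Mrpl52). These are intensities of different probe sets, so the order between genes is only a rough guide to RNA abundance.

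The brightest large subunit transcript was that of Mrpl52, a protein with no bacterial homologue. It had a log2 intensity of 8.96, 9.27 and 9.64 in wt_Set, 8.60, 9.55 and 10.05 in myr_Set and 9.77, 9.65 and 10.35 in mCherry. All wt_Set arrays lay just below the lowest mCherry array, while those of myr_Set overlapped both groups. Mrpl23, a protein that in bacteria sits at the exit of the peptide tunnel, had 9.19, 9.35 and 9.76 in wt_Set, 8.09, 9.16 and 10.03 in myr_Set and 9.77, 9.68 and 10.49 in mCherry. Mrpl17 had 8.78, 9.03 and 9.09 in wt_Set, 8.09, 9.13 and 9.34 in myr_Set and 9.27, 9.53 and 9.91 in mCherry. In both, array 1 of myr_Set was the lowest of all 9. Mrpl37, a mitochondria-specific protein, had 8.73, 9.30 and 8.98 in wt_Set, 8.15, 8.86 and 9.45 in myr_Set and 9.42, 9.05 and 9.17 in mCherry, with overlap between all groups.

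On the small subunit the brightest was Mrps12, whose protein belongs to the decoding centre that checks the match of codon and tRNA. It had 8.01, 8.35 and 8.54 in wt_Set, 8.69, 8.61 and 8.96 in myr_Set and 8.31, 8.56 and 8.83 in mCherry. Mrps14 had 8.19, 7.63 and 8.27 in wt_Set, 6.98, 8.60 and 9.07 in myr_Set and 9.18, 8.59 and 9.38 in mCherry. In Mrps14 the myr_Set arrays had an SD of 1.10, against 0.18 in Mrps12. Mrps21, the next in level beside the Mrps18 paralogs described below, had 8.19, 8.33 and 8.33 in wt_Set, 7.45, 8.08 and 8.90 in myr_Set and 9.09, 8.39 and 8.68 in mCherry, where wt_Set lay just below mCherry and myr_Set overlapped both.

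At the lower end lay Mrpl40 and Mrpl19 of the large subunit and Mrps28 and Mrps9 of the small one. Mrpl40 had 6.11, 6.19 and 5.74 in wt_Set, 5.91, 6.25 and 6.65 in myr_Set and 6.16, 6.25 and 6.30 in mCherry, and Mrps28 had 6.09, 6.24 and 6.01 in wt_Set, 6.19, 6.25 and 6.74 in myr_Set and 6.25, 6.31 and 6.42 in mCherry. Mrpl19 had 6.65, 6.53 and 6.57 in wt_Set, 6.48, 6.57 and 6.84 in myr_Set and 6.83, 6.47 and 6.75 in mCherry. The groups overlapped in Mrpl40 and Mrpl19, and in Mrps28 the wt_Set arrays ended just below the mCherry arrays. Mrps9 had 6.23, 6.45 and 5.36 in wt_Set, 5.48, 6.23 and 7.20 in myr_Set and 6.84, 7.02 and 7.32 in mCherry, with all wt_Set arrays below all mCherry arrays. The 90th percentile of the 1117 odorant receptor genes, which serve the sense of smell, was taken as a mark of background on each array. This mark stood at 7.48, 7.35 and 7.32 in wt_Set, 7.65, 7.45 and 6.98 in myr_Set and 6.89, 7.32 and 7.14 in mCherry. The 235 odorant receptor genes past the level filter had a median difference from mCherry of 0.24 in wt_Set and 0.22 in myr_Set. The counts that follow thus depend on the mark as well as on the members. Of the 70 members, 32, 28 and 28 lay below the mark in wt_Set, 53, 30 and 9 in myr_Set and 7, 15 and 8 in mCherry. Only 6 members were below it on all 9 arrays and 17 were above it on all 9, so for the others the size of a difference is less certain.

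**Figure D1:**
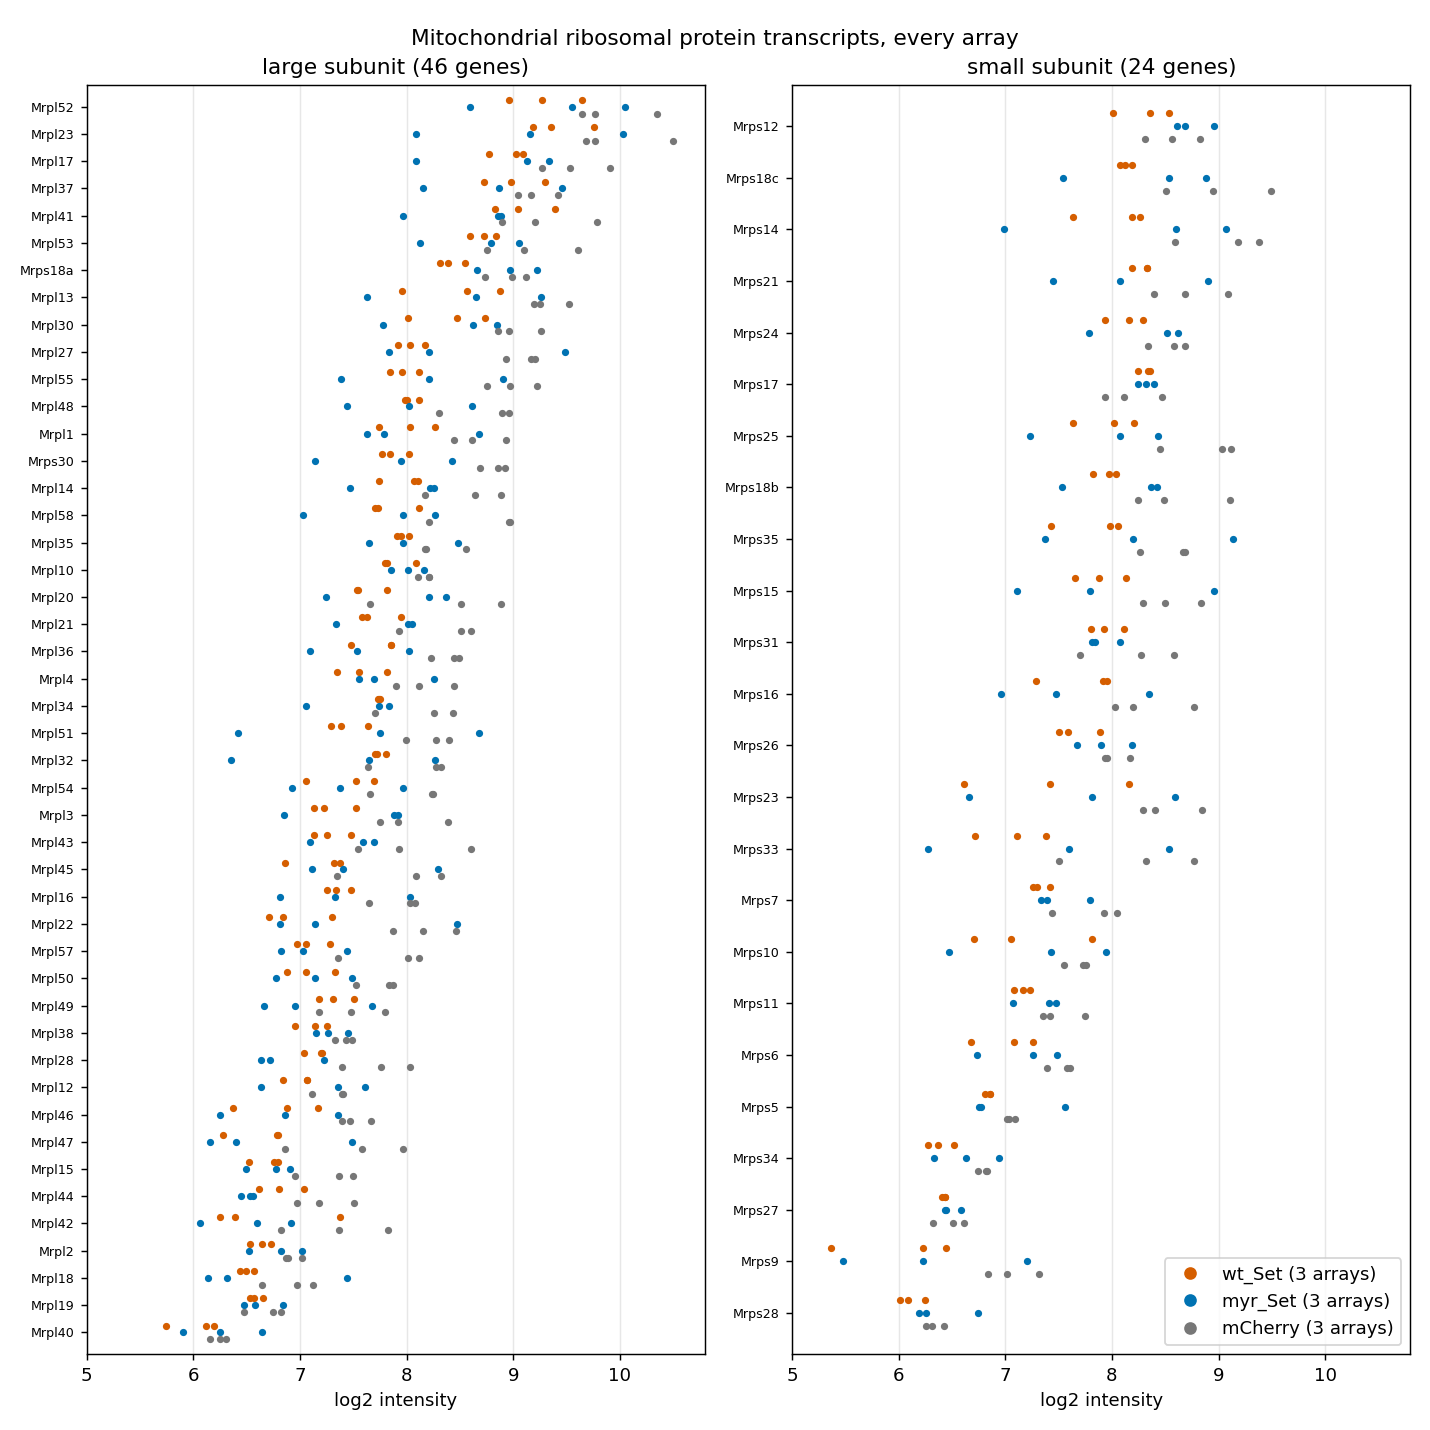
Log2 intensity (horizontal axis) of all 70 members, a row per gene ordered by mean level, with large subunit genes on the left and small subunit genes on the right. Each point is 1 array; wt_Set is orange, myr_Set blue and mCherry grey, and in most rows the grey points lie to the right while the blue points spread widest.

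Most members were high or low on the same arrays. Over the 64 members past the level filter the median SD was 0.189 in wt_Set, 0.541 in myr_Set and 0.289 in mCherry. Of the 70 members, 41 had their lowest value on array 1 of myr_Set, and 36 had their highest on array 3 of mCherry, 17 on array 3 of myr_Set and 16 on array 1 of mCherry. The members' median log2 level was 7.63, 7.59 and 7.59 in wt_Set, 7.15, 7.67 and 8.26 in myr_Set and 8.23, 7.89 and 8.39 in mCherry. The wt_Set arrays were thus close together and below all mCherry arrays, while 1 myr_Set array lay below every other array and another reached the level of mCherry. In the plot of family medians, array 1 of myr_Set was the lowest and array 3 of mCherry the highest for the cytosolic ribosomal proteins and the respiratory chain too, while the order among the wt_Set arrays and array 2 of myr_Set differed between the families.

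**Figure D2:**
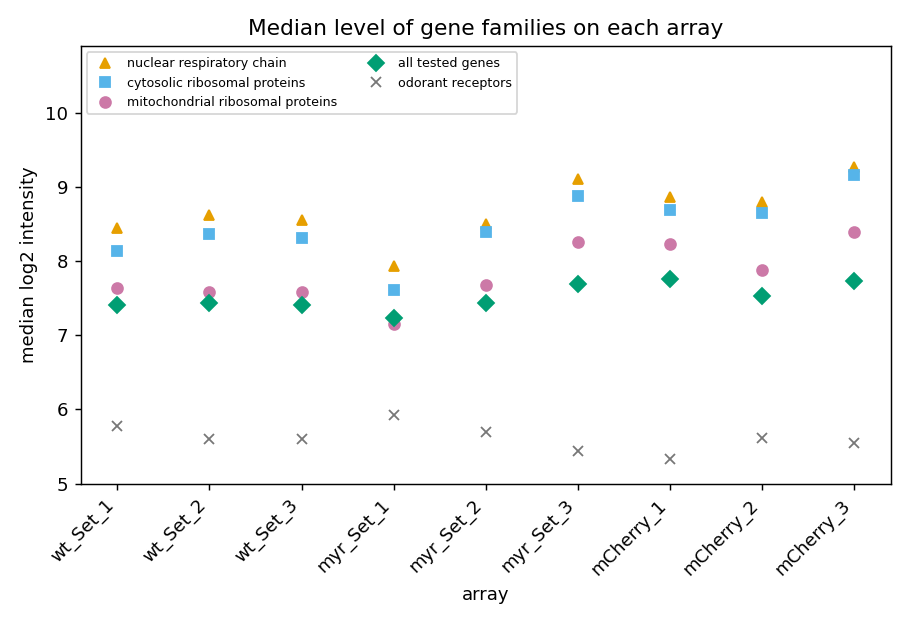
Median log2 intensity (vertical axis) of gene families on each of the 9 arrays (horizontal axis). Mitochondrial ribosomal proteins (circles) ran from 7.15 on array 1 of myr_Set to 8.39 on array 3 of mCherry, and odorant receptors (crosses), the mark of background, were at their highest on array 1 of myr_Set.

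The correlation of each tested member's 9 values with the mean profile of the members had a median of 0.871, and that of all tested genes a median of 0.694. The points share the arrays and their signal range, so this is a description. The members nearest to the mean of the others were Mrpl48 (r = 0.98) and Mrpl16 (r = 0.98), and the tested members farthest from it were Mrps17 (r = -0.03), Mrps11 (r = 0.17), Mrps12 (r = 0.31) and Mrpl12 (r = 0.47). Among the genes outside the family, those closest to the members' mean profile over 9 arrays were Snx6, a sorting nexin (r = 0.996), Fig4, a lipid phosphatase (r = 0.993), Vmp1, an autophagy protein (r = 0.992), Psmd7 of the proteasome (r = 0.990) and Txnrd1, a thioredoxin reductase (r = 0.989). These are the highest r over all tested genes outside the family, and r does not measure size. Fig4 ran only from 6.72 to 7.06, with differences from mCherry of -0.14 in wt_Set and -0.13 in myr_Set.

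Differences between groups were tested with limma over all 9 arrays on the 18343 clusters whose mean log2 intensity was at least 6.65, the median of all clusters. The filter kept 64 members, 44 of the large and 20 of the small subunit, and left out Mrpl19, Mrpl40, Mrps9, Mrps27, Mrps28 and Mrps34. Both Set groups were set against the same mCherry arrays. Over all 10518 tested genes the median difference was -0.29 for wt_Set and -0.26 for myr_Set against mCherry. With quantile normalization this median was -0.11 for wt_Set and -0.12 for myr_Set, and with cyclic loess -0.12 for wt_Set and -0.09 for myr_Set. For this reason the family's differences are also stated after subtracting that median.

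In wt_Set the members were lower than in mCherry nearly throughout, but no single gene passed the adjusted test. The median log2 difference of the 64 tested members was -0.61, which is -0.32 relative to all tested genes. A difference below 0 was seen in 63 of 64 and in 69 of the 70 members. The clusters include many without a gene symbol, so counts over tested genes are given too. Below 0 were 65.5% of all tested clusters and 8113 of the 10518 tested genes. Below the median difference of all tested genes lay 56 of 64 members, against 41.1% of clusters and, as a median requires, 5259 of 10518 genes. The arrays of wt_Set lay below those of mCherry without overlap in 47 of 64, against 26.4% of clusters and 3652 of 10518 genes. They lay above them in 0 of 64, against 7.31% of clusters and 443 of 10518 genes. With quantile normalization the members' count on the lower side was 30, against 11.7% of clusters, and with cyclic loess 28, against 12.1%. No member (0 of 64) was past 0.05 after limma's adjustment, the lowest adjusted p being 0.447. An unadjusted p under 0.05 was found for 19, all lower, where 10.2% of clusters did so, 7.13% on the lower side and 3.04% on the higher side. Among the 10518 tested genes 917 were lower and 111 higher at that p.

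The 6 members of smallest p in wt_Set all code for large subunit proteins. Mrps30, also known as a programmed cell death protein and placed on the large subunit, had 8.03, 7.77 and 7.84 in wt_Set and 8.93, 8.86 and 8.69 in mCherry, a difference of -0.94 ± 0.29 (SE). The highest wt_Set array stayed well below the lowest mCherry array. Mrpl22, whose bacterial homologue lines the tunnel through which the new peptide leaves, had 6.71, 6.84 and 7.30 in wt_Set and 8.16, 7.87 and 8.46 in mCherry, a difference of -1.21 ± 0.40. Mrpl55, a large subunit protein counted with the bacterial homologues, had 7.96, 7.85 and 8.11 in wt_Set and 8.75, 8.97 and 9.22 in mCherry, a difference of -1.01 ± 0.34. In all 3 genes the groups did not overlap, and limma's adjusted p was 0.447 for each. All 3 wt_Set arrays of Mrpl22 lay below the odorant receptor mark, so the size of its difference is less certain.

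Smaller differences with smaller standard errors followed. Mrpl50, a mitochondria-specific protein, had 7.06, 7.33 and 6.88 in wt_Set and 7.84, 7.53 and 7.87 in mCherry (-0.66 ± 0.22). Mrpl57, another such protein, had 6.98, 7.05 and 7.28 in wt_Set and 8.12, 7.36 and 8.02 in mCherry (-0.73 ± 0.25), and Mrpl15 had 6.80, 6.76 and 6.53 in wt_Set and 7.497, 6.96 and 7.37 in mCherry (-0.58 ± 0.20). In Mrpl57 the ranges were separated by a narrow gap, and limma's adjusted p was 0.447 for these genes too. All wt_Set arrays of Mrpl50, Mrpl57 and Mrpl15 lay below the odorant receptor mark, as did 1 mCherry array of Mrpl15. The 1 tested member above 0 was Mrps17, a small subunit protein with a bacterial homologue, with 8.25, 8.34 and 8.35 in wt_Set and 7.94, 8.12 and 8.47 in mCherry. Its difference of 0.14 ± 0.17 was smaller than its error, and the groups overlapped.

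The 19 genes with a low unadjusted p depended on single arrays. There were 9 without wt_Set replicate 1, 9 without wt_Set replicate 3, 37 without myr_Set replicate 1 and 34 without myr_Set replicate 3, which enter the estimate of spread, 7 when mCherry replicate 1 was left out, 29 without mCherry replicate 2 and 1 when mCherry replicate 3 was left out. The share of all clusters called in each of these fits is not given. These counts therefore do not separate a change in the members from a change over the whole array. The median relative to all tested genes ran from -0.38 to -0.22 over the 9 fits that each left out 1 array. With quantile normalization the members' median was -0.36 and relative to all genes -0.25, with 58 of 63 below 0, and with cyclic loess -0.38 and -0.27, with 59 of 64 below 0. Of the calls at unadjusted p over all clusters, 29.9% were higher as deposited, 62.5% with quantile normalization and 54.5% with cyclic loess, whereas the members' 7 and 11 calls in these scalings were all lower. The lower calls over all tested genes fell too, from 917 of 10518 as deposited to 318 of 10492 with quantile normalization and 519 of 10518 with cyclic loess.

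In myr_Set the members had a similar median but a wider spread. The median difference from mCherry was -0.58, or -0.32 relative to all tested genes. A difference below 0 was seen in 61 of 64, against 63.9% of clusters and 7827 of 10518 tested genes, and in 64 of the 70 members. Below the median of all tested genes lay 53 of 64, against 41.9% of clusters and 5259 of 10518 genes. The arrays did not overlap in 10 of 64 on the lower side, against 6.85% of clusters and 849 of 10518 genes. On the higher side there were 0, against 4.55% of clusters and 290 of 10518 genes. Again 0 of 64 were past 0.05 after limma's adjustment, the lowest adjusted p being 0.447. An unadjusted p under 0.05 was found for 13, all lower, against 9.79% of clusters, 6.92% on the lower and 2.87% on the higher side. Among the 10518 tested genes 905 were lower and 124 higher at that p.

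Mrpl28, a large subunit protein with a bacterial homologue and a pair of adjacent ETS matches in the window shown above, had the smallest p of the family. It had 6.64, 6.72 and 7.23 in myr_Set and 7.76, 7.39 and 8.03 in mCherry, a difference of -0.86 ± 0.22 (limma's adjusted p = 0.447). Mrpl44, a double-stranded RNA binding protein related to ribonuclease III whose human gene is mutated in a cardiomyopathy, had 6.56, 6.45 and 6.53 in myr_Set and 6.97, 7.18 and 7.51 in mCherry, a difference of -0.71 ± 0.19. Its myr_Set arrays were close together, with an SD of 0.06, and all 3 lay below the odorant receptor mark. Mrpl36, a small protein with a bacterial homologue, had 7.54, 7.09 and 8.02 in myr_Set and 8.45, 8.23 and 8.49 in mCherry (-0.84 ± 0.25). In these 3 genes no myr_Set array reached the mCherry range. Of the myr_Set arrays, 2 of Mrpl28 and 2 of Mrpl36 also lay below the odorant receptor mark.

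Mrps30 repeated the size seen in wt_Set against the same controls, with 7.14, 7.95 and 8.43 in myr_Set and 8.93, 8.86 and 8.69 in mCherry, a difference of -0.98 ± 0.29. Mrps25, a mitochondria-specific small subunit protein, had 7.23, 8.08 and 8.43 in myr_Set and 9.04, 8.45 and 9.11 in mCherry (-0.95 ± 0.33), where the ranges almost met. Mrpl57 had 6.82, 7.03 and 7.44 in myr_Set and 8.12, 7.36 and 8.02 in mCherry (-0.73 ± 0.25), with overlap. The members above 0 were Mrps12 (0.19 ± 0.21), Mrps17 (0.14 ± 0.17) and Mrps18a (0.002 ± 0.19), each within its error. For every one of these 6 differences limma's adjusted p was at least 0.447.

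The comparison of myr_Set with mCherry depended on single arrays. Without array 1 of myr_Set 5 members had an unadjusted p under 0.05 and the median relative to all tested genes was -0.13. The count was 43 without myr_Set replicate 3, 6 when mCherry replicate 1 was left out, 21 without mCherry replicate 2 and 4 when mCherry replicate 3 was left out. Here too the share of all clusters called in each fit is not given. The 10 members whose arrays did not overlap were also 10 without array 1 of myr_Set, where 8.66% of clusters lay lower in this way. Leaving out an array cannot undo a separation, so this count could not have fallen and is no measure of stability. With quantile normalization the members' median was -0.34 and relative to all genes -0.22, and with cyclic loess -0.30 and -0.20, with 9 members at an unadjusted p under 0.05 in both scalings, all lower. Over all tested genes the lower calls fell from 905 of 10518 as deposited to 462 of 10492 with quantile normalization and 511 of 10518 with cyclic loess. Of the calls over all clusters 29.3% were higher as deposited, 57.3% with quantile normalization and 57.7% with cyclic loess.

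**Figure D3:**
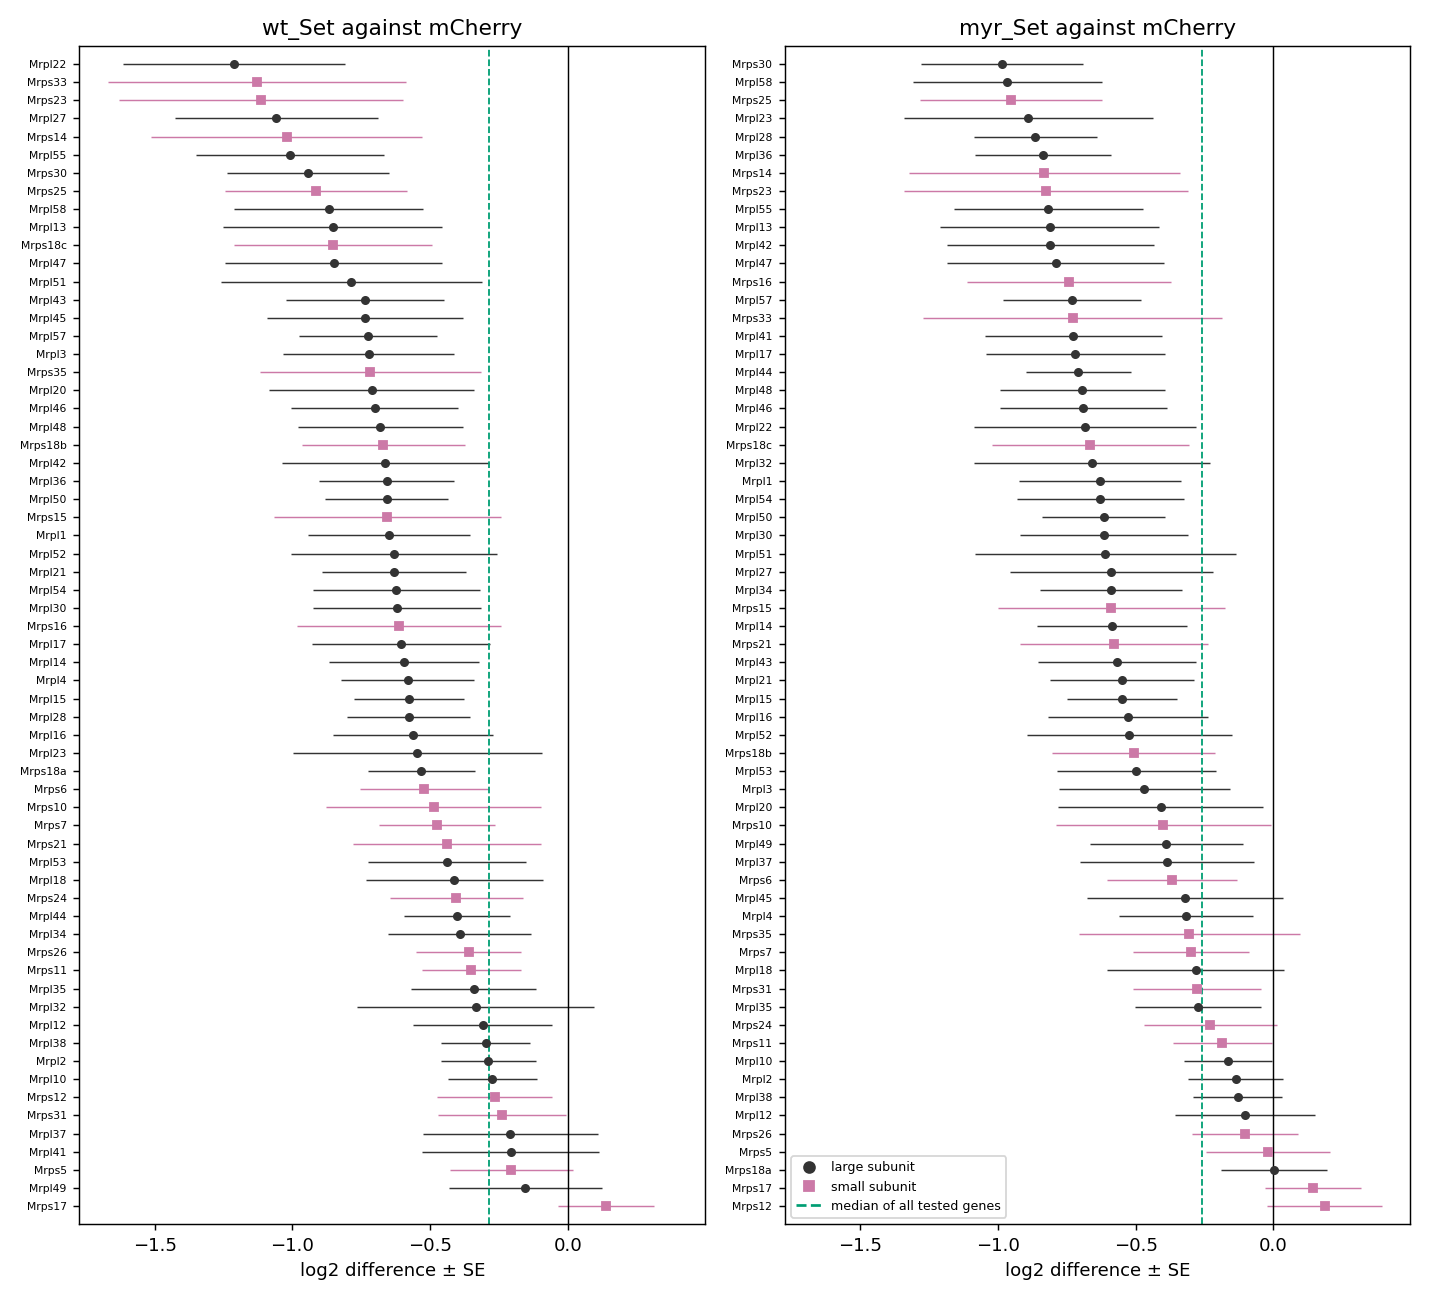
Log2 difference from mCherry (horizontal axis) with its standard error (bars) for the 64 tested members, a row per gene, with wt_Set on the left and myr_Set on the right. The dashed line is the median of all tested genes (-0.29 for wt_Set, -0.26 for myr_Set); most points lie to its left, from -1.21 for Mrpl22 in wt_Set to 0.19 for Mrps12 in myr_Set.

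Between the forms of Set the members differed little. The median difference of myr_Set minus wt_Set was 0.07, or 0.06 relative to all tested genes. Below 0 were 21 of 64, against 48.5% of clusters and 4904 of 10518 tested genes. Below the median of all tested genes were 25 of 64, against 51.5% of clusters and 5259 of 10518 genes. With limma 0 of 64 passed, every adjusted p being 0.9998 or above. At an unadjusted p under 0.05 there was 1 member, Mrps18a, on the higher side, where 1.13% of clusters were called, 0.567% on each side. Among the 10518 tested genes 26 were called on the higher side and 15 on the lower. The arrays did not overlap in Mrps18a and Mrps12 on the higher side, against 2.63% of clusters and 263 of 10518 genes. In Mrpl44 they did not overlap on the lower side, against 1.76% of clusters and 147 of 10518 genes. Without array 1 of myr_Set the higher count was 20 of 64, against 15.8% of clusters.

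Mrps12 had a difference of 0.45 ± 0.21 (SE) between myr_Set and wt_Set, with every myr_Set array above the highest wt_Set array by a small margin. Mrpl44 had a difference of -0.30 ± 0.19, with 6.61, 6.80 and 7.04 in wt_Set just above the myr_Set values given above. Mrpl41, a mitochondria-specific protein, had 7.96, 8.88 and 8.86 in myr_Set and 9.39, 8.82 and 9.04 in wt_Set (-0.52 ± 0.32). In Mrpl41 the groups overlapped. Mrpl49 (-0.23 ± 0.28) and Mrps26 (0.26 ± 0.19) also overlapped, and Mrpl28, described above, differed by -0.29 ± 0.22.

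The 3 paralogs Mrps18a, Mrps18b and Mrps18c share descent from 1 bacterial small subunit protein, and their products occupy different places in the mammalian mitoribosome, with that of Mrps18a on the large subunit. Mrps18a had 8.97, 8.66 and 9.22 in myr_Set, 8.39, 8.55 and 8.31 in wt_Set and 8.99, 8.74 and 9.12 in mCherry. On the deposited scale its myr_Set arrays overlapped those of mCherry and its wt_Set arrays lay below them, whereas with cyclic loess the differences from mCherry were 0.41 in myr_Set and -0.18 in wt_Set, neither past the test. On the deposited scale it had a difference between myr_Set and wt_Set of 0.53 ± 0.19 and an unadjusted limma p of 0.0225. Mrps18b had 7.53, 8.37 and 8.42 in myr_Set, 7.82, 8.04 and 7.97 in wt_Set and 9.11, 8.25 and 8.49 in mCherry. Mrps18c had 7.54, 8.53 and 8.88 in myr_Set, 8.08, 8.12 and 8.19 in wt_Set and 8.95, 8.51 and 9.49 in mCherry. For Mrps18b and Mrps18c the myr_Set arrays overlapped both other groups, and their differences between myr_Set and wt_Set were 0.16 ± 0.30 and 0.19 ± 0.36. The difference of Mrps18a between the forms ran from 0.40 to 0.68 over 16 alternative settings, and that of Mrps18c reversed to -0.09 without myr_Set replicate 3. Whether Mrps18a differs from its paralogs was not tested.

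**Figure D4:**
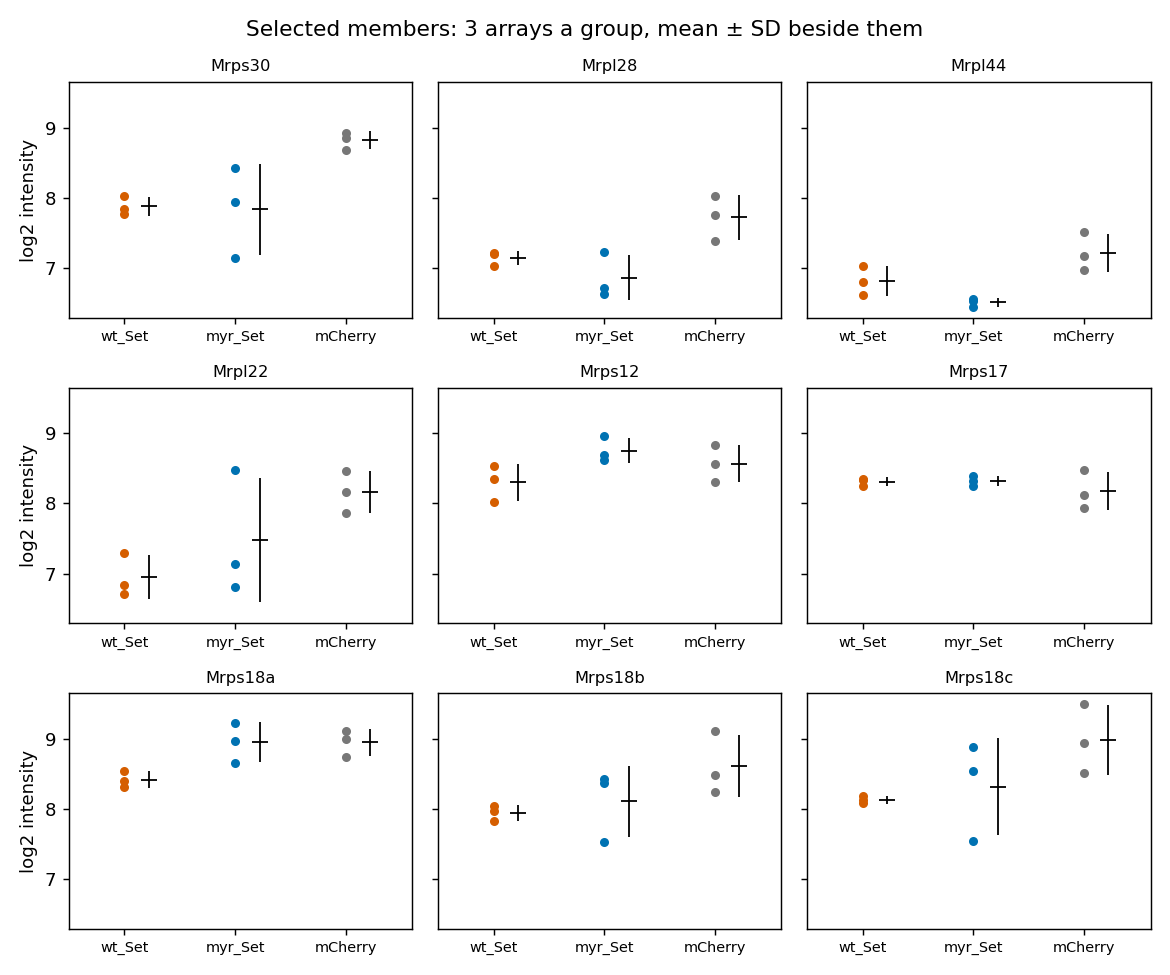
Log2 intensity (vertical axis) of 9 members in wt_Set, myr_Set and mCherry, with 1 point per array and a bar for mean ± SD of 3 arrays beside them. In Mrps30 and Mrpl28 both Set groups lay below mCherry, in Mrps18a wt_Set did and myr_Set did not on this deposited scale, and in Mrps17 the groups overlapped.

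By subunit, the large subunit members had a median difference from mCherry of -0.62 in wt_Set and -0.60 in myr_Set, and the small subunit members of -0.50 in wt_Set and -0.38 in myr_Set. At an unadjusted p under 0.05 there were 16 of 44 large and 3 of 20 small subunit genes in wt_Set and 12 large and 1 small subunit genes in myr_Set, all lower. Lower at that p were 7.13% of all tested clusters in wt_Set and 6.92% in myr_Set. Among the 10518 tested genes they were 917 in wt_Set and 905 in myr_Set. The count of small subunit genes in myr_Set was thus near the share over all clusters. By origin, the 26 tested mitochondria-specific members had medians of -0.67 in wt_Set and -0.61 in myr_Set, and the 38 with bacterial homologues had -0.58 in wt_Set and -0.56 in myr_Set. Of the Mrps18 paralogs, Mrps18c was counted with the bacterial homologues, and Mrps18a and Mrps18b, whose products lie elsewhere than the bacterial protein, with the mitochondria-specific members. With all 3 among the bacterial homologues, a choice made after seeing the data, the 24 mitochondria-specific members had -0.67 in wt_Set and -0.62 in myr_Set, and the 40 others -0.58 in wt_Set and -0.55 in myr_Set. The difference between subunits or origins was not tested. Mrpl12, the protein of the flexible stalk that recruits translation factors and that in human cells also binds the mitochondrial RNA polymerase, had 7.07, 6.84 and 7.07 in wt_Set, 7.36, 6.63 and 7.61 in myr_Set and 7.40, 7.11 and 7.40 in mCherry. Its differences of -0.31 ± 0.25 in wt_Set and -0.10 ± 0.25 in myr_Set did not pass the test, and that of myr_Set reversed to 0.18 without myr_Set replicate 2.

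The difference from mCherry depended on level in all genes, and the members were compared at their own level. Sorted into deciles by mean intensity, all tested genes had a median difference of -0.03 in the lowest decile and -0.57 in the highest in wt_Set, and of -0.01 in the lowest and -0.62 in the highest in myr_Set. Of the 64 members, 50 lay below the median of their own decile in wt_Set, 48 in myr_Set and 22 for myr_Set minus wt_Set. In the sixth decile, with levels of 7.501 to 7.714, the 8 members had a median of -0.73 in wt_Set against -0.29 for all genes of that decile, and all 8 lay below it. In the highest decile the 5 members had -0.55 in wt_Set against -0.57 for all genes, and -0.72 in myr_Set against -0.62. The brightest members thus had medians near those of other bright genes, while the median of these 8 members of middle level lay below that of its decile.

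**Figure D5:**
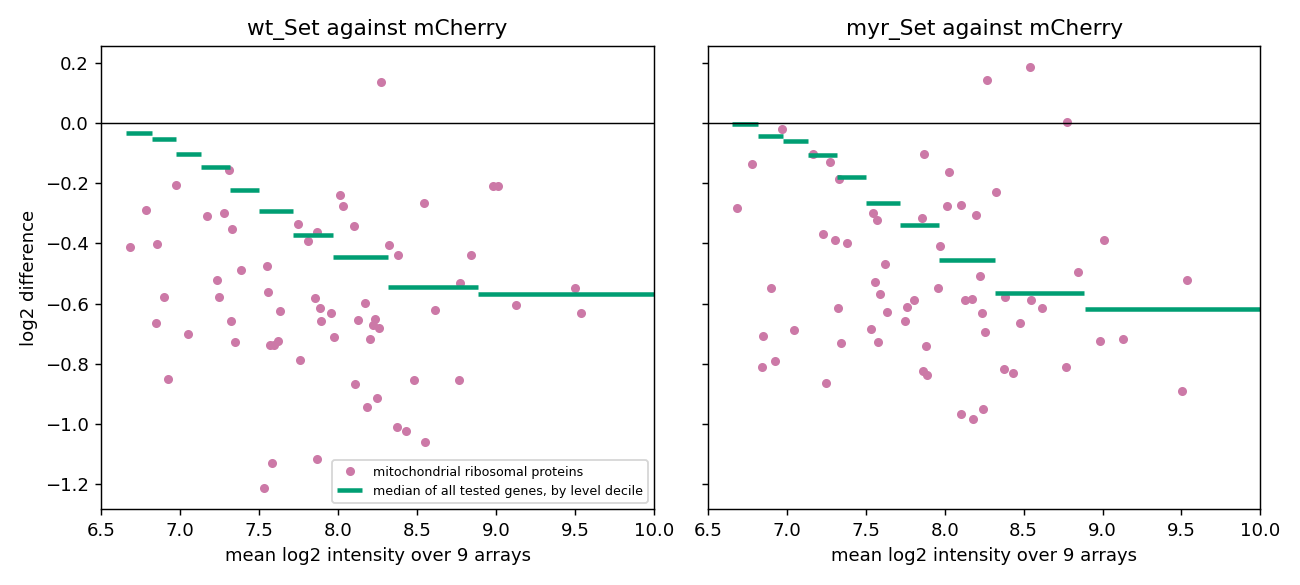
Log2 difference from mCherry (vertical axis) against mean log2 intensity over 9 arrays (horizontal axis) for the 64 tested members (points), with wt_Set on the left and myr_Set on the right. Green lines are the medians of all tested genes by decile of level, from -0.03 to -0.57 in wt_Set and from -0.01 to -0.62 in myr_Set, the axis ending before the highest level; 50 and 48 of the 64 points lie below the line of their decile.

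Families with related tasks gave a measure for these sizes. They were taken by symbol pattern, which found 149 cytosolic ribosomal and 100 respiratory chain symbols on the array. The first pattern also admits copies of ribosomal protein genes and the kinase-like Rps6kl1. The second also admits assembly factors named Ndufaf and subunits of ATP synthase. The 107 tested cytosolic ribosomal proteins had a median relative to all tested genes of -0.22 in wt_Set and -0.23 in myr_Set, and the 83 tested nuclear respiratory chain genes of -0.24 in wt_Set and -0.33 in myr_Set. Both values were -0.32 for the mitochondrial ribosomal proteins. The median level was 9.73 for the cytosolic proteins, 9.21 for the respiratory chain and 7.89 for the tested members. Before subtraction the cytosolic proteins had -0.50 in wt_Set and -0.49 in myr_Set, and the respiratory chain -0.52 and -0.59. All genes of the highest decile, from a level of 8.89, had -0.57 and -0.62, so neither family lay below other bright genes. With cyclic loess the cytosolic proteins had -0.06 relative to all tested genes in wt_Set and 0.003 in myr_Set, where the sign turned. The respiratory chain had -0.08 in both. The mitochondrial ribosomal proteins then had -0.27 in wt_Set and -0.20 in myr_Set. With quantile normalization the cytosolic proteins had -0.14 in wt_Set and -0.12 in myr_Set, the respiratory chain -0.11 in wt_Set and -0.18 in myr_Set, and the mitochondrial ribosomal proteins -0.25 in wt_Set and -0.22 in myr_Set. The differences between families were not tested. The mitochondrial messages COX1, COX2 and COX3, which these ribosomes translate, had log2 levels of 12.5 to 13.7, at the upper end of the tested genes. Before subtraction their differences were -0.15 to -0.24 in wt_Set and -0.17 to -0.22 in myr_Set. Relative to all tested genes their median was higher, 0.13 in wt_Set and 0.08 in myr_Set, and 0 of 3 lay below the median of all tested genes. With cyclic loess their median before subtraction turned to 0.09 in wt_Set and 0.22 in myr_Set.

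Other genes of mitochondrial translation were taken from lists. On these lists 0 genes were past 0.05 after limma's adjustment, and the counts that follow are at an unadjusted p under 0.05, all on the lower side. There lay 7.13% of all tested clusters in wt_Set and 6.92% in myr_Set, and of the 10518 tested genes 917 in wt_Set and 905 in myr_Set. With lists this short a count of 0 or 1 cannot be told from these shares, and the larger counts were not tested against them. Of 5 mitoribosomal proteins under other symbols, 3 in wt_Set and 1 in myr_Set were counted. They were Dap3, a GTP-binding small subunit protein (-0.60 ± 0.18 in wt_Set), Gadd45gip1 of the large subunit (-0.64 ± 0.24 in wt_Set) and Ptcd3, a pentatricopeptide protein of the small subunit (-0.50 ± 0.20 in wt_Set and -0.68 ± 0.20 in myr_Set). Of 8 tested translation factors 1 in wt_Set and 0 in myr_Set were counted, the first being Tufm, the elongation factor that brings tRNA to the ribosome (-0.52 ± 0.20). The list medians were -0.50 in wt_Set and -0.55 in myr_Set for the other-symbol proteins, and -0.52 in wt_Set and -0.53 in myr_Set for the factors.

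Of 20 tested genes of mitoribosome assembly and RNA modification, 1 in wt_Set and 3 in myr_Set were counted, with medians of -0.28 in wt_Set and -0.21 in myr_Set, close to those of all tested genes. They were Afg3l2, a protease that matures a ribosomal protein (-0.64 ± 0.26 in wt_Set), and in myr_Set Malsu1 (-0.76 ± 0.30), Tfb1m, a ribosomal RNA methyltransferase (-0.57 ± 0.22), and Noa1, a GTPase of small subunit assembly (-0.48 ± 0.21). Of 12 tested mitochondrial aminoacyl-tRNA synthetases 2 in wt_Set and 0 in myr_Set were counted, namely Rars2 (-0.52 ± 0.21) and Kars1, which also serves the cytosol (-0.66 ± 0.28). The list medians were -0.07 in wt_Set and -0.15 in myr_Set, above those of all tested genes. Of 12 tested genes listed under mitochondrial transcription and its nuclear regulators 1 in wt_Set and 4 in myr_Set were counted, with medians of -0.48 in wt_Set and -0.46 in myr_Set. Among them Yy1, the factor whose letters were sought in the promoters, had 7.91, 7.996 and 7.72 in wt_Set, 7.60, 7.75 and 8.19 in myr_Set and 8.64, 8.39 and 8.62 in mCherry, with differences of -0.67 ± 0.19 in wt_Set and -0.70 ± 0.19 in myr_Set and no overlap with mCherry in either group. Tfam, which packs and transcribes mitochondrial DNA, differed by -0.49 ± 0.24 in wt_Set and -0.62 ± 0.24 in myr_Set, and Nrf1, the factor of the NRF1 motif, by -0.21 ± 0.20 in wt_Set and -0.31 ± 0.20 in myr_Set. The list also held Clpb, a mitochondrial chaperone and not a transcription gene. Clpb is among the 4 counted in myr_Set (-0.80 ± 0.315) and enters the list medians.

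A pair of limits bears on single members. RefSeq lists 37 pseudogenes for 22 of the 70 members, 9 of them for Mrpl30, and probes that match a pseudogene as well cannot be told apart here. The 3 lower-case symbols lay in the same range as the members. mrpl11 had 7.55, 7.36 and 7.38 in wt_Set, 7.44, 7.51 and 8.31 in myr_Set and 8.38, 8.22 and 8.58 in mCherry, a difference of -0.96 ± 0.24 in wt_Set. For mrpl9 and mrpl24 the differences in wt_Set were -0.58 ± 0.37 and -0.73 ± 0.39.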

How the data were processed

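Amplified RNA was hybridised to Affymetrix arrays of the Rat Gene type, per the labels' protocols. Expression Console and RMA, both from the submitters' processing notes and without versions, gave the values. The authors deposited linear intensity values of 36685 transcript clusters and scaled them so that the median of each array is 100. No source used here gives the genome build of the array. Of the clusters, 18511 carry 1 gene symbol, 575 several and 17599 none.

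The deposited intensities were log2-transformed and fitted in R 4.3.3 with limma 3.58.1 as 1 model of 3 group means (6 residual and 2.82 prior degrees of freedom), two-sided, with Benjamini-Hochberg adjustment over all 18343 clusters past the level filter of 6.65. The self-test ran on simulated data. Each gene stands by its cluster of highest mean. The number of arrays, 9, limits the precision, since arrays carry no depth. Members and lists were chosen with earlier results of these data known. Named with values were the members of highest and lowest level per subunit (4 and 2), those of smallest p per comparison and direction (6, or 4 between the forms of Set), the Mrps18 paralogs, Mrps30 and Mrpl12. Mrps36, also in the rule, is not analysed here. Other genes came from fixed symbol patterns or lists. Promoters were searched with Python 3.11.15. Alternatives were other scalings and filters, a fit of 2 groups, the replicate block and each array left out.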

Additional observations from a re-analysis of the deposited data

How the results depend on the processing

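The count of clusters past limma's adjusted p of 0.05 was 0 in every comparison and every alternative fitted. For wt_Set against mCherry the members at an unadjusted p under 0.05, 19 as reported, were 7 with quantile normalization, 11 with cyclic loess, 9 with the level filter at the 75th percentile and 39 in a fit of only the 2 groups, and 1 to 37 over the fits that left out 1 array. For myr_Set against mCherry, 13 as reported, they were 5 with the stricter filter, which tests 43 members, and 4 to 43 without 1 array, and the median relative to all tested genes was -0.11 with that filter and -0.38 to -0.13 without 1 array (-0.32 as reported). For myr_Set against wt_Set, 1 as reported, they were 2 with quantile normalization, 2 with the replicate block and 0 to 9 without 1 array. In this comparison 51 of 10492 tested genes were lower and 40 higher at that p with quantile normalization. The other alternatives for these results, among them no level filter, single-symbol clusters only, the mean over a gene's clusters and the lower-case symbols added (chosen after seeing the data), stayed within 1.5 times the count or within 0.176, the SD of the median between replicates. Apart from the scalings, for which counts over tested genes are given, the share of all clusters called in each alternative is not given beside the members' counts.

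No label ties the numbers of the arrays to a shared preparation, and they were not taken to pair the samples, since not every correlation was over 0.1. The deviations of arrays with the same number correlated at -0.069 to 0.383 over 9 pairs, and those of different numbers at -0.398 to 0.365 over 18 pairs. Array 1 was the lowest array of all 3 groups, however, in 4 of 6 tested markers of endothelial, mural and fibroblast cells, 4 of 8 of microglia and macrophages and 1 of 3 of glia and progenitors (Vim), against 9.28% of all tested genes, 4 of the 64 members and 0 of 15 markers of retinal ganglion cells. A shared preparation per number was not tested. With the replicate block 22 members in wt_Set, 19 in myr_Set and 2 in the comparison of both Set forms had an unadjusted p under 0.05. The share of all clusters in that fit is not given.

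Among the differences of named members, 10 values changed sign. Against mCherry, Mrpl37 had 0.14 in wt_Set with quantile normalization and 0.16 with cyclic loess, and 0.044 in myr_Set with cyclic loess. Mrps12 in wt_Set had 0.052 with quantile normalization and 0.063 with cyclic loess. In myr_Set, Mrpl12 had 0.18 without myr_Set replicate 2, in a range of -0.31 to 0.18 without 1 array. Mrps18a, at 0.002 as reported, had -0.00714 without myr_Set replicate 1, -0.13 without myr_Set replicate 3 and -0.10 without mCherry replicate 2, in a range of -0.13 to 0.15 without 1 array, and reached 0.41 with cyclic loess. Between myr_Set and wt_Set, Mrps18c had -0.092 without myr_Set replicate 3, in a range of -0.092 to 0.58. The cause was not tested for any of these values. None of the main differences of these genes passed the test. With 3 arrays a group, and with 28 to 32 of 70 members below the odorant receptor mark on wt_Set arrays, signal over background limits the size of differences of dim members.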
